A study of Mus musculus with 9 samples.

Results

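Genes that move calcium, set the beat or couple cells in heart muscle were followed in mouse embryos, in their posterior second heart field (pSHF). They are Ryr2, Casq2, Atp2a2, Pln, Sln, Slc8a1, Cacna1c, Hcn4, Gja5 and Gja1. They were chosen by symbol from the authors' full deposited table of 27198 rows, where each of the 10 symbols matched 1 row. Polyadenylated RNA was sequenced from 5 Shh KO and 4 Shh WT libraries at stage E10.5, all of mixed strain background. Shh encodes Sonic hedgehog, a secreted ligand; what the KO allele lacks is not stated in the labels, nor is whether the libraries came from separate embryos. Microdissection took the pSHF, the mesoderm that adds cells to the atria and the inflow of the heart. The comparison asks which transcripts of this tissue differ between Shh KO and Shh WT embryos. All fold changes below are Shh KO over Shh WT, as the authors' Cuffdiff run gave them, with 1 value per gene and no value per library. A gene is called at a Cuffdiff q-value, which is a p-value adjusted over all tested rows, under 0.05.

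In a heartbeat, the L-type channel Cacna1c lets calcium into the cell, and this calcium opens Ryr2, the release channel of the sarcoplasmic reticulum. Casq2 holds calcium inside that store, Atp2a2 pumps it back, and the small membrane proteins Pln and Sln restrain the pump. Slc8a1 exports calcium in exchange for sodium, Hcn4 carries the pacemaker current, and the connexins Gja5 and Gja1 form channels that pass current between neighbouring cells. Several of these genes also work outside heart muscle: Atp2a2 in most cells, Gja5 in arterial endothelium, and Gja1 in many mesenchymal and epithelial cells.

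Cuffdiff called 0 of the 8 tested members higher and 0 lower, where 1.56% of the 13048 named tested rows were called higher and 0.383% lower, 1.94% in all. Slc8a1 was the 1 member of the 8 with an unadjusted Cuffdiff p under 0.05, against 7.51% of all named tested rows. The median log2 fold change of the 8 was 0.07 in the authors' deposited table, beside 0.02 for all named tested rows. Of these members 5 had a positive and 3 a negative value, and 7 lay within 0.25 of no change, as did 71.0% of the named tested rows. Pln and Casq2 carry a fold change in the authors' deposited table but no test. None of the 10 is in the authors' shorter table, the one with FPKM levels (fragments scaled to transcript length and library size), so no level of a member can be given. In bulk tissue, fewer cells of a type and less RNA per cell cannot be told apart.

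The store and its release channel gave unlike values. Ryr2 (chromosome 13, 11553103 to 12106945, mm10) had in the authors' deposited table a log2 fold change of 0.23, a ratio of 1.17, with a Cuffdiff p of 0.412. Casq2 (chromosome 3, 102086455 to 102146512) was listed in the authors' deposited table at 1.09 (log2), a ratio of 2.12, without a test. An untested row has no p-value that could set its ratio against the spread between libraries, and 43.9% of named rows were untested.

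Among the pump and its 2 inhibitors, the untested gene again had the highest ratio. Atp2a2 (chromosome 5, 122453410 to 122502232) had in the authors' deposited table a log2 fold change of 0.16 (Cuffdiff p = 0.391). Sln (chromosome 9, 53850251 to 53853849), the inhibitor typical of atrial muscle, had one of 0.08 in the authors' deposited table (Cuffdiff p = 0.902). Pln, the other inhibitor, was listed at 1.26 in the authors' deposited table, a ratio of 2.39, again without a test. Its row (chromosome 10, 53273455 to 53379851) is far wider than the gene (53337686 to 53345999), because it covers Cep85l, within whose span Pln lies. Cep85l has a row of its own over the same interval, at −0.10 in the authors' deposited table, so the 2 genes were given separate estimates. Gm19395 also has a row over this interval, at −0.69 there and without a test.

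Slc8a1, the sodium-calcium exchanger (chromosome 17, 81373077 to 81738377), had the highest value of the 8 tested members. In the authors' deposited table its log2 fold change was 0.50, a ratio of 1.41, with a Cuffdiff p of 0.0125 and a q of 0.342. In the ranking of named tested rows by fold change it stood at percentile 90.9.

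Among the channels at the cell surface, neither member was called. Cacna1c (chromosome 6, 118592157 to 119221840) had in the authors' deposited table a log2 fold change of −0.02 (Cuffdiff p = 0.939). Its row shares a span with Dcp1b, an mRNA decapping gene, which the authors' deposited table gives at 0.27 with no call. The row of 4931430N09Rik, listed there at 0.88 without a test, covers the same span. Hcn4 (chromosome 9, 58823512 to 58860955), a gene of the inflow and the future sinus node, had a value of 0.06 in the authors' deposited table (Cuffdiff p = 0.796).

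Both connexins were slightly below 0 without a call. Gja5 (chromosome 3, 97032402 to 97053634), typical of atrial muscle, had in the authors' deposited table a log2 fold change of −0.15 (Cuffdiff p = 0.515), at percentile 19.9. Gja1 (chromosome 10, 56377300 to 56390419) had one of −0.03 in the authors' deposited table (Cuffdiff p = 0.845). RefSeq places the noncoding gene 4930573H18Rik over part of Gja5, and no source used here gives the strand setting of the authors' counting.

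The precision of the member fold changes was read from the deposited p-values, taken as two-sided normal p-values. It does not give the size of change that would have been called, since a call uses the q-value, adjusted over all tested rows. The resulting 95% intervals on the log2 scale ran from −0.38 to 0.31 for Gja1, from −0.59 to 0.29 for Gja5 and from −0.40 to 0.52 for Hcn4. For Atp2a2 the interval was −0.21 to 0.53, for Ryr2 −0.32 to 0.79 and for Cacna1c −0.60 to 0.56. A 2-fold change in either direction lies outside these 6 intervals; the highest of their upper bounds, that of Ryr2, is a 1.73-fold rise. Slc8a1 had an interval of 0.11 to 0.89, which is not adjusted for the number of rows tested. Sln, at −1.26 to 1.43, was measured too coarsely to tell a 2-fold change in either direction from none. The deposited test statistic, read as a z value, gives intervals about 2 times as wide: that of Gja1 then runs from −0.76 to 0.69 and that of Atp2a2 from −0.60 to 0.92, still without a 2-fold change. For the other 4 of the 6 a 2-fold change falls inside: Ryr2 runs from −0.93 to 1.40, Cacna1c from −1.26 to 1.21, Hcn4 from −0.92 to 1.04 and Gja5 from −1.07 to 0.78. For Slc8a1 the wider interval, −0.28 to 1.28, includes 0. The statistic does not behave as a z value: where it is near 1, the median Cuffdiff p is 0.0402, against 0.317 for a z of 1. Whether the p-values can be read as normal was not checked either. Both sets of intervals are therefore a description only.

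**Figure D1:**
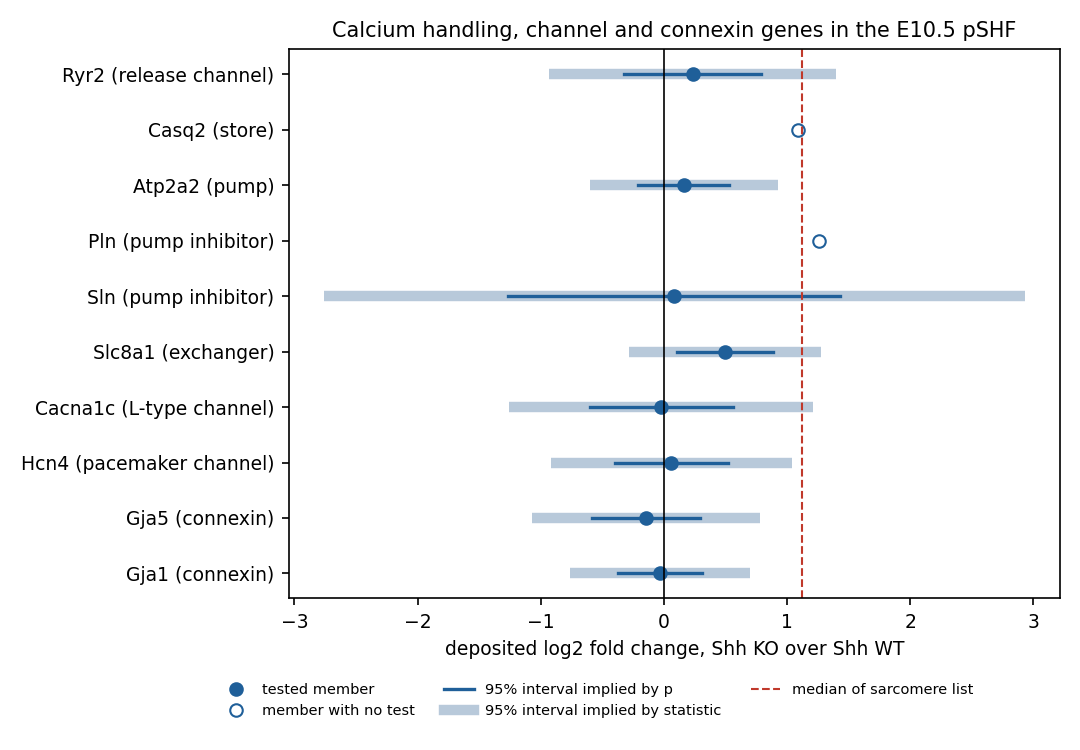
Deposited log2 fold change (x axis) of each of the 10 genes (rows), with thin lines for the 95% interval implied by the p-value, wide bars for the one implied by the statistic, and open circles for Casq2 and Pln, which have no test. The 7 tested genes other than Slc8a1 have thin lines that cross 0, and the dashed line marks the sarcomere median of 1.12.

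Genes of the contractile apparatus, measured in the same libraries, had higher values. Of 18 tested sarcomere rows, 13 were called higher and 0 lower, with a median log2 fold change of 1.12 and a lowest value of 0.36 in the authors' deposited table. Slc8a1 is the 1 tested member above that lowest value. Myl3, a myosin light chain, had 80.0 FPKM in Shh KO and 19.1 FPKM in Shh WT in the authors' deposited table, and Myl2, the ventricular regulatory light chain, 14.2 FPKM in Shh KO and 3.65 FPKM in Shh WT. Myl4, an atrial light chain, had 654 FPKM in Shh KO and 256 FPKM in Shh WT in the authors' deposited table. Tnni3, the cardiac troponin I gene, had 83.5 FPKM in Shh KO and 29.5 FPKM in Shh WT there, and the Z-disc gene Actn2 12.1 FPKM in Shh KO and 4.83 FPKM in Shh WT.

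Heart muscle genes that belong to neither the sarcomere nor ion handling gave 5 called higher and 0 lower among 11 tested rows, with a median of 1.46. Nppa, the atrial natriuretic peptide gene, had 65.9 FPKM in Shh KO and 8.55 FPKM in Shh WT in the authors' deposited table. Popdc2, a membrane protein gene of heart muscle, had 24.2 FPKM in Shh KO and 13.6 FPKM in Shh WT there. Cox6a2 (2.23), Cox7a1 (1.53) and Hspb7 (1.46), muscle forms of respiratory subunits and a small heat shock protein, were the others called in the authors' deposited table. The Cox6a2 row overlaps another named row. No test of the difference between these lists and the members was made. The untested members Casq2 (1.09) and Pln (1.26) are listed close to the sarcomere median in the authors' deposited table. Untested rows of the heart muscle lists ran from −1.01 (Cox8b) to 5.84 (Ckm) there. Closeness of an untested row to that median thus cannot be read as a shared change.

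**Figure D2:**
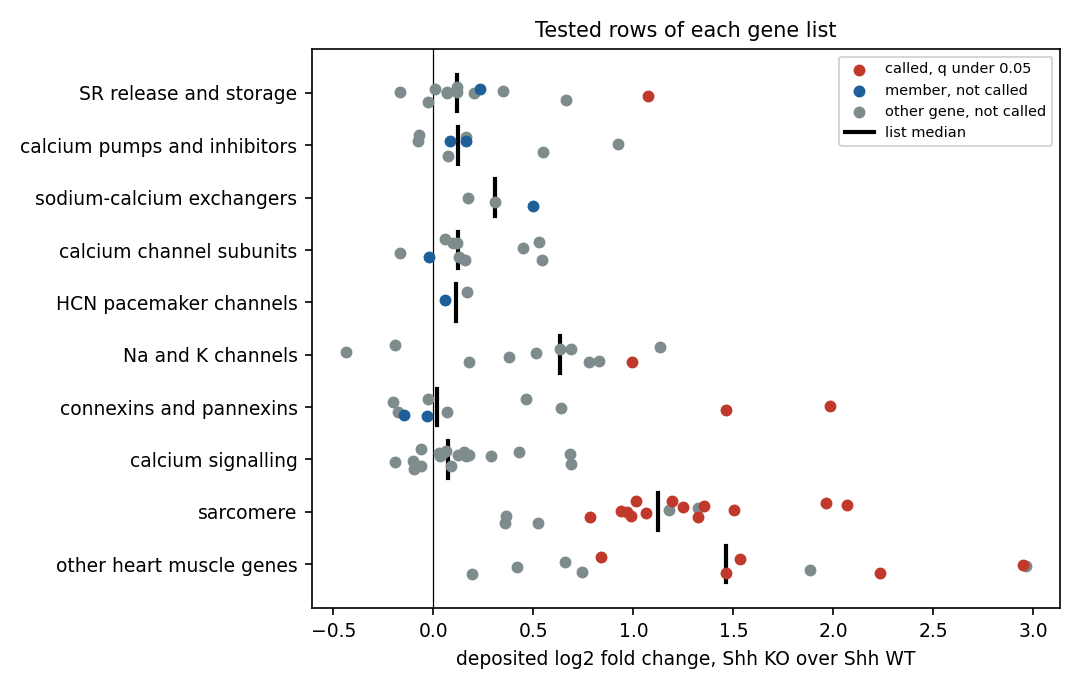
Deposited log2 fold change (x axis) of every tested row in each gene list (y axis); red points are called, blue points are members, grey points are other genes, and black bars are list medians. All 13 called sarcomere rows lie to the right of the tested members. The same holds for every named row called higher. The smallest such rise was 0.59 (log2), above the highest tested member, Slc8a1 at 0.50.

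The other genes of calcium handling, channels, connexins and calcium signalling were taken from 8 lists of 109 genes, of which 108 matched a row and 66 were tested. Cuffdiff called 4 of the 66 higher and 0 lower, a share of 6.06% higher against 1.56% of all named tested rows. At an unadjusted p under 0.05 there were 16, all with a positive fold change, or 24.2% against 7.51% of named tested rows. Their median log2 fold change was 0.16, and 51 of the 66 were positive. The 4 called genes were Casq1, Kcnj5, Gjb1 and Gjb2, none of which is among the 10 members.

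Casq1, the calsequestrin typical of skeletal muscle, rose to 19.7 FPKM in Shh KO, against 9.38 FPKM in Shh WT, in the authors' deposited table (chromosome 1, 172209894 to 172219895, log2 fold change 1.07, Cuffdiff q = 0.00985). It was the 1 gene called among 11 tested rows of calcium release, storage and junction genes other than members. Their median was 0.12. Jph2, which holds the store close to the surface membrane, was not called at 0.67 in the authors' deposited table (Cuffdiff p = 0.00515, q = 0.182), and the store protein gene Hrc stood at 0.20. Jph2 and Hrc were chosen after their values were seen. The untested paralog Casq2 has a deposited ratio of 2.12, beside 2.11 for Casq1, but no p-value, so their likeness was not tested. In the same libraries, skeletal muscle markers gave 2 of 7 tested rows higher, Tnni2 and Acta1, whose pooled levels sum to 30.1 FPKM in Shh KO and 11.9 FPKM in Shh WT in the authors' deposited table. Over the 7 rows the median log2 fold change was 1.05, 4 had an unadjusted Cuffdiff p under 0.05, and 4 would be called at a q under 0.10. Of the uncalled ones, the light chain gene Myl1 stood at 1.55 (Cuffdiff q = 0.0894) and the muscle precursor gene Pax3 at 1.05 (Cuffdiff q = 0.0883) in the authors' deposited table. The determination gene Myod1 stood at 0.04 there, Myog at 0.37 and Tnnt3 at −0.04. These uncalled genes were named after their values were seen. Another 6 markers of the list had no test, and 2 of them had a positive fold change. The part of such cells in the Casq1 result was not tested.

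Pumps, exchangers and calcium channels other than the members gave 0 calls by Cuffdiff in either direction. Over all named tested rows, 1.94% were called and 7.51% had an unadjusted Cuffdiff p under 0.05. With so few tested rows per list, 0 calls does not set these genes apart from the rest. Among 6 tested pump and pump regulator rows, 2 had an unadjusted p under 0.05, and the lowest belonged to S100a1, a calcium-binding protein of muscle, at 0.92 in the authors' deposited table (Cuffdiff p = 0.0123, q = 0.339). The 2 tested exchanger rows had 0 such p-values, and the lower p was that of Slc24a6, now named Slc8b1, the mitochondrial exchanger, at 0.31 in the authors' deposited table. Of 9 tested rows of calcium channel subunits, 3 had an unadjusted p under 0.05. Cacna1h, a T-type channel that opens at low voltage, had the lowest, at 0.54 on that scale in the authors' deposited table (Cuffdiff p = 0.0162, q = 0.407). Hcn3, the 1 other pacemaker channel with a test, stood at 0.17 in the authors' deposited table (Cuffdiff p = 0.850). Calcium signalling genes gave 0 calls and 2 unadjusted p-values under 0.05 among 18 tested rows, the lowest for the adenylyl cyclase Adcy5 at 0.68 in the authors' deposited table (Cuffdiff q = 0.388).

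Sodium and potassium channels had a higher median, 0.64, over 11 tested rows. Kcnj5 was the 1 called, and 5 of the 11 had an unadjusted Cuffdiff p under 0.05, each with a positive fold change. Kcnj5, a subunit of the potassium channel that acetylcholine opens in atrial and nodal cells, rose to 3.41 FPKM in Shh KO, against 1.71 FPKM in Shh WT, in the authors' deposited table (chromosome 9, 32314783 to 32344237, log2 fold change 0.99, Cuffdiff q = 0.0476). Its q-value lies close to 0.05, and the gene is low: with 1 FPKM added to each pooled value, its log2 fold change becomes 0.70. Another 12 channel genes of the list had no test. Neurons also carry many ion channels, and pan-neuronal markers were called higher in 3 of 11 tested rows (Elavl3, Tubb3 and Stmn2), with a median log2 fold change of 0.49 over the 11. The 3 called rows, the ones with a level, sum to 80.4 FPKM in Shh KO and 41.1 FPKM in Shh WT in the authors' deposited table. Their part in the channel result was not tested.

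Connexins other than the 2 members gave 2 rises, both in the beta group. Gjb2 rose to 4.95 FPKM in Shh KO, against 1.79 FPKM in Shh WT, in the authors' deposited table (chromosome 14, 57098602 to 57104702, Cuffdiff q = 0.00554). Gjb1 rose to 3.32 FPKM in Shh KO, against 0.841 FPKM in Shh WT, in the authors' deposited table (chromosome X, 101377337 to 101385624, log2 fold change 1.98, Cuffdiff q = 0.0235). With 1 FPKM added to each pooled value, the log2 fold change becomes 1.23 for Gjb1 and, against a deposited 1.47, 1.09 for Gjb2. These 2 are the gap junction genes typical of liver epithelium. Hepatoblast markers were called higher in 8 of 8 tested rows, with Apoa1 (2.46) and Alb (2.07) at the top in the authors' deposited table and summed levels over the 8 of 479 FPKM in Shh KO and 134 FPKM in Shh WT. Macrophage markers were called higher in 5 of 8, led by Tyrobp (2.18 in the authors' deposited table), and epicardial and mesothelial markers in 3 of 9, led by Wt1 (0.92 there). The part of such cells in the connexin result was not tested. Endothelial markers bear on Gja5 and on the endothelial connexin Gja4 (−0.20, not called in the authors' deposited table). These markers gave 0 calls by Cuffdiff among 14 tested rows and a median of 0.06. An unadjusted Cuffdiff p under 0.05 was found for 1 of the 14, or 7.14%, beside 7.51% of all named tested rows. Of all named tested rows, 1.94% were called, so 0 calls among 14 does not set this list apart. Gjc1, the connexin of the earliest heart tube, stood at −0.03 in the authors' deposited table and was not called. Gja4 and Gjc1 were chosen after their values were seen.

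**Figure D3:**
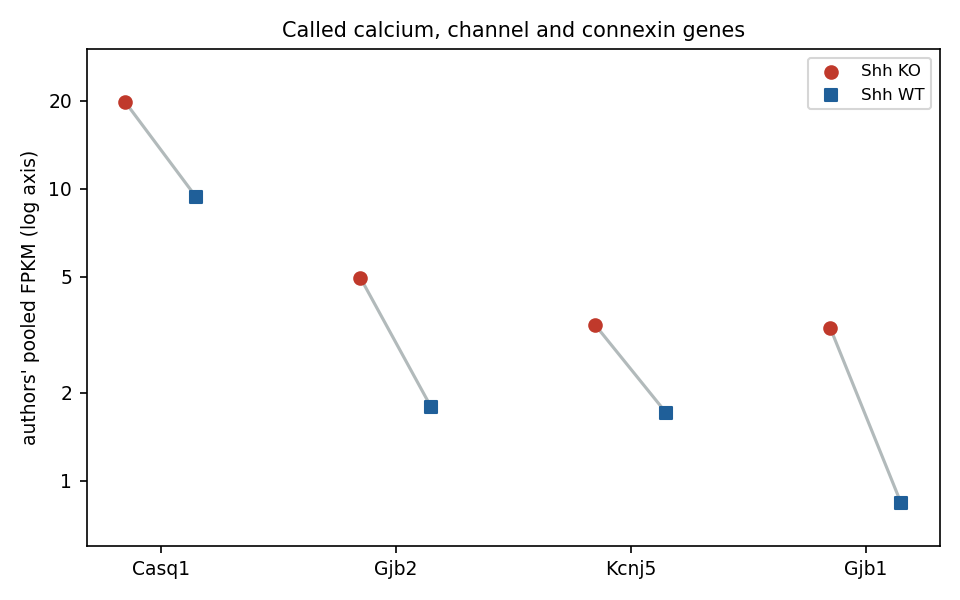
The authors' pooled FPKM (y axis, log scale) in Shh KO (red circles) and Shh WT (blue squares) for the 4 called genes of the wider lists. Each level is 1 pooled value per genotype without an error, and Casq1, at 19.7 FPKM in Shh KO, is the highest of the 4.

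Genes of the tissue and of the conduction system were set beside the members. Of 18 second heart field genes, all tested, 5 were called lower and 0 higher, the lowest being Foxf2 (−2.80 on the log2 scale), followed by Osr1, with 33.5 FPKM in Shh KO and 71.4 FPKM in Shh WT in the authors' deposited table. Isl1 (−0.39) and Nkx2-5 (−0.06), transcription factor genes of the field, had no Cuffdiff call in the authors' deposited table. Over all named tested rows, 1.56% were called higher and 0.383% lower. Of 14 tested genes of the sinus node and conduction system, 1 was called higher, Cntn2, a cell adhesion gene. It had 3.15 FPKM in Shh KO and 1.71 FPKM in Shh WT in the authors' deposited table (Cuffdiff q = 0.0454). At a q under 0.01 it was not called, and 1 call among so few rows does not set this list apart. The node genes Shox2 (0.24) and Tbx3 (0.03), like Hcn4, had no call in the authors' deposited table. Isl1, Nkx2-5, Shox2 and Tbx3 were named after their values were seen. Shh itself, the check of the labels, had 5.44 FPKM in Shh KO and 15.7 FPKM in Shh WT in the authors' deposited table (Cuffdiff q = 0.00554). Shh reads were thus fewer in the Shh KO libraries but not absent. The tables do not show which part of the gene they came from.

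**Figure D4:**
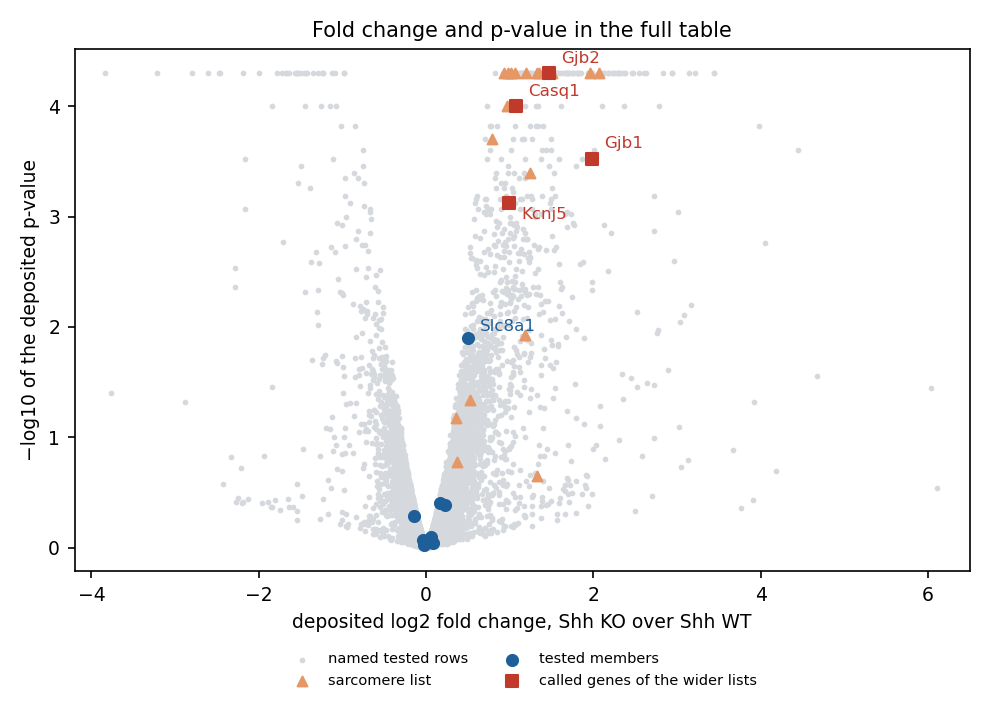
Deposited log2 fold change (x axis) against −log10 of the deposited p-value (y axis) for 13048 named tested rows (grey), the sarcomere list (triangles), the 8 tested members (blue circles) and the 4 called genes of the wider lists (red squares). Except for Slc8a1 the members sit at the foot of the plot, and the flat top is the smallest p of the table, 5e-05.

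Promoters were read for the letters of factors that act in this tissue. RefSeq (GRCm38.p6) gave 10 windows for 8 members, each from 250 bases before to 50 after a start site, and none for Atp2a2 and Sln. The binding letters of the Gli factors, GACCACCCA, were in 0 of the 10 windows and in 0.253% of 32851 windows of all genes, on either strand. The inner part, CCACCCA, was in 2 windows of members, Ryr2 and Slc8a1, and in 9.30% of all windows. The GATA letters, AGATAA, were in 3 windows of members (Slc8a1, Gja1 and Pln) and in 11.2% of all. TATAAA was in 1, that of Pln, and in 13.6% of all. The inner Gli letters lie within the longer ones, so those 2 searches overlap. Slc8a1 is shown because it had the lowest p of the members, and Kcnj5 as a called channel gene that carries the same inner letters; capitals mark CCACCCA and AGATAA or their reverse complements.
Slc8a1, chr17:81738338-81738637, minus strand: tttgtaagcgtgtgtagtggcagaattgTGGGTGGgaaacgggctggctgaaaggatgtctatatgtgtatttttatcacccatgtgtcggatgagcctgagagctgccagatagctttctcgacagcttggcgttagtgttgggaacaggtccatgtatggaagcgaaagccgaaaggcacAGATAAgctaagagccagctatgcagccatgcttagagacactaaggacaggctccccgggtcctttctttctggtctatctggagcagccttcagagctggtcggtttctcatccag
Kcnj5, chr9:32344295-32344594, minus strand: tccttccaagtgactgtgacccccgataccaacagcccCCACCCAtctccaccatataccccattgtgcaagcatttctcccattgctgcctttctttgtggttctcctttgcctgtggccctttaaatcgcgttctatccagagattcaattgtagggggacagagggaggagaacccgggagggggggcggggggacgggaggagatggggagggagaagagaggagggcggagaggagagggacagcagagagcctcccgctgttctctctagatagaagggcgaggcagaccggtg
The inner Gli letters begin at position −222 from the start site in Slc8a1 and at −212 in Kcnj5. These matches describe letters in the windows only; no binding was measured here.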

How the data were processed

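Per the labels' protocols, TruSeq libraries of pSHF polyA RNA were read as stranded single-end reads of 50 bp. Per the submitters' processing notes, TopHat2 2.0.10 and Cuffdiff 2.1.1 were used with build mm9. Positions, with 1 added to each start, are given as mm10, because 99.3% of 21462 symbols overlapped their RefSeq gene on GRCm38.

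The authors deposited a full table with a log2 fold change, a statistic (a score), a p-value and a q-value per row, and a shorter one of 253 genes with 1 pooled FPKM per genotype, their ratio and its log2. Depth per library is unknown, and since no label names separate embryos, the p-values may reflect technical spread alone. A deposited p-value of 1 was read as untested, which leaves 16944 tested rows, and adjusting them by Benjamini-Hochberg returned every deposited q-value within 0.0001. Unnamed rows, 22.9% of the tested ones, and 17 named tested rows with a spreadsheet error in place of the fold change were left out. The sign of the fold change was checked on the 253 genes, where it equals Shh KO over Shh WT.

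The members and lists were chosen with earlier results of these data known. The text names all members, each called gene and the lowest p of each calcium, channel and connexin list, and, of the other lists, the 5 largest called genes of each heart muscle list and at most 3 of the largest of each tissue or cell type list. Some list genes are not reported here and were left out of the counts of their lists. Where a list gene was not in the table, an older RefSeq symbol was used if it was unambiguous. Rows, not symbols, were counted, so Myh6 and Myh7 count once. The planned estimate of precision from the statistic needed it to behave as a z value. It does not (median p of 0.0402 where the statistic is near 1, against 0.317 for a z of 1), so the interval from the p-value was added after seeing the data. The adjustment and interval code was tested on simulated data. Those p-values were normal by design, so the test cannot show whether the deposited ones are. Python 3.11.15 with pandas 2.3.3 and scipy 1.17.1 was used.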

Additional observations from a re-analysis of the deposited data

How the results depend on the processing

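The count of called members stayed at 0 in both directions at a q under 0.01 or 0.10 and without the rows that overlap others. It also stayed at 0 with Benjamini-Hochberg adjustment over named rows and with Benjamini-Yekutieli adjustment. The lowest Cuffdiff q of a member was 0.342 (Slc8a1). None of these settings could therefore have changed the count. For the adjustment over named rows, the lowest Cuffdiff p of a member, 0.0125, is too high. Only 7.51% of named tested rows had an unadjusted Cuffdiff p under 0.05. In the wider lists 4 genes were called higher, 2 at a q under 0.01, and 0 with Benjamini-Yekutieli adjustment. That adjustment also left 0 of the 18 heart muscle rows called higher, and 0 of 23 higher and 0 of 5 lower rows in the other cell type lists, which fell to 12 and 3 at a q under 0.01. The smallest deposited p-value, 5e-05, cannot pass it. Centring on the median of named tested rows kept the sign of all 8 tested members, and gave 1.06 for Casq2 and 1.23 for Pln, which have no test. That median, 0.02, is below the smallest positive value of a tested member, 0.06 for Hcn4, so no sign could change. Adding 1 FPKM, chosen after seeing the data, gave 1.23 for Gjb1 (deposited 1.98), 1.09 for Gjb2 (1.47) and 1.00 for Casq1 (1.07) on the log2 scale. Pooled FPKM is not given for any member, so this was not run for them, and no library could be left out because no value per library is in the tables. No paired analysis was possible because the columns carry no replicate numbers. Untested rows and unknown levels limit what can be said of Pln and Casq2.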
